A study of Mus musculus with 40 samples.

Results

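The thick ascending limb of the loop of Henle is represented here by 9 genes that its cells are known to use, namely Umod, Slc12a1, Egf, Cldn10, Cldn16, Cldn19, Ptger3, Casr and Kcnj1. They were picked by gene symbol, with earlier results of these data known. All 9 were found among the 55401 rows of the count table, and all 9 reached the minimum of a mean of 10 counts in each of the 15 comparisons. RNA was from the kidney cortex of 40 male C57BL/6J mice, with 5 individually sequenced mice in each of 8 groups. Ins2-Akita heterozygous mice, which are diabetic through a mutated insulin gene in every cell, were compared with non-diabetic wild type (WT) littermates. In the ethanol arm, mice of both genotypes received either the vehicle of 10% ethanol in water or MitoGamide, a mitochondria-targeted scavenger of reactive dicarbonyls, at 10 mg/kg in that vehicle by daily gavage from 6 to 22 weeks of age. In the water arm, both genotypes received water or MitoQ, a mitochondria-targeted antioxidant, in water. The labels of these samples repeat the ages of 6 and 22 weeks in a protocol that names only the ethanol arm, and the dose of MitoQ was not given in the sources used here. Replicates are separate animals.

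The thick ascending limb reabsorbs salt without water. Sodium, potassium and chloride enter its cells through the cotransporter encoded by Slc12a1, the target of loop diuretics, and potassium returns to the lumen through the channel encoded by Kcnj1 (ROMK). The lumen thereby becomes positive, and cations pass between the cells through pores made of claudins: Cldn10 forms a sodium pore, and Cldn16 and Cldn19 together form a pore for calcium and magnesium. The calcium-sensing receptor (Casr) and the prostaglandin E receptor EP3 (Ptger3) restrain this transport. Umod encodes uromodulin, the most abundant protein of normal urine, and Egf encodes the precursor of epidermal growth factor, which the limb and the distal convoluted tubule release.

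Counts per library ranged from 9106654 to 24321424. Values are given in CPM, counts relative to the size of the library after scaling with edgeR's TMM factors over all 40. Some libraries stood apart. The TMM factor was 0.505 in replicate 3 of the WT mice on MitoQ and 0.759 in replicate 2 of the Akita mice on water, and at least 0.834 elsewhere. The first principal component of the deviations from the group means, computed without the 9 genes, held 29.9% of their variance. Libraries of the water arm lay between -77.9 and 72.3 on this axis, and those of the ethanol arm between -20.0 and 20.7. The sign of this axis was set so that it correlates positively with the TMM factors. The 2 libraries with low factors were the lowest of their groups on it, which this choice of sign favours. Markers of the liver, a check for RNA of another organ, summed to 370.5 CPM in replicate 1 of the WT mice on water, against a median of 9.23 over the WT mice and at most 52.8 in an Akita mouse.

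The 9 genes together took between 0.0935% and 0.529% of the counts of a library. Per kilobase of transcript, Umod had the highest level, with 432 ± 116 CPM per kb over the 20 WT mice (SD), and Egf followed with 243 ± 31.9. Umod lay above Egf, and Egf above Slc12a1, in 40 of 40 libraries. Slc12a1 was at 105 ± 31.6 and lay above Kcnj1, at 61.1 ± 12.9, in 37 libraries. Cldn10 came next with 37.7 ± 13.0 CPM per kb. The level of Casr (13.6 ± 2.44) was above that of Cldn19 (11.5 ± 4.56) in 25 of 40 libraries, so these neighbours in the order did not differ beyond their spread. Ptger3 (7.77 ± 2.97) and Cldn16 (3.17 ± 1.04) were lowest. The order in Akita mice was the same but for Casr and Cldn19, which changed places.

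**Figure D1:**
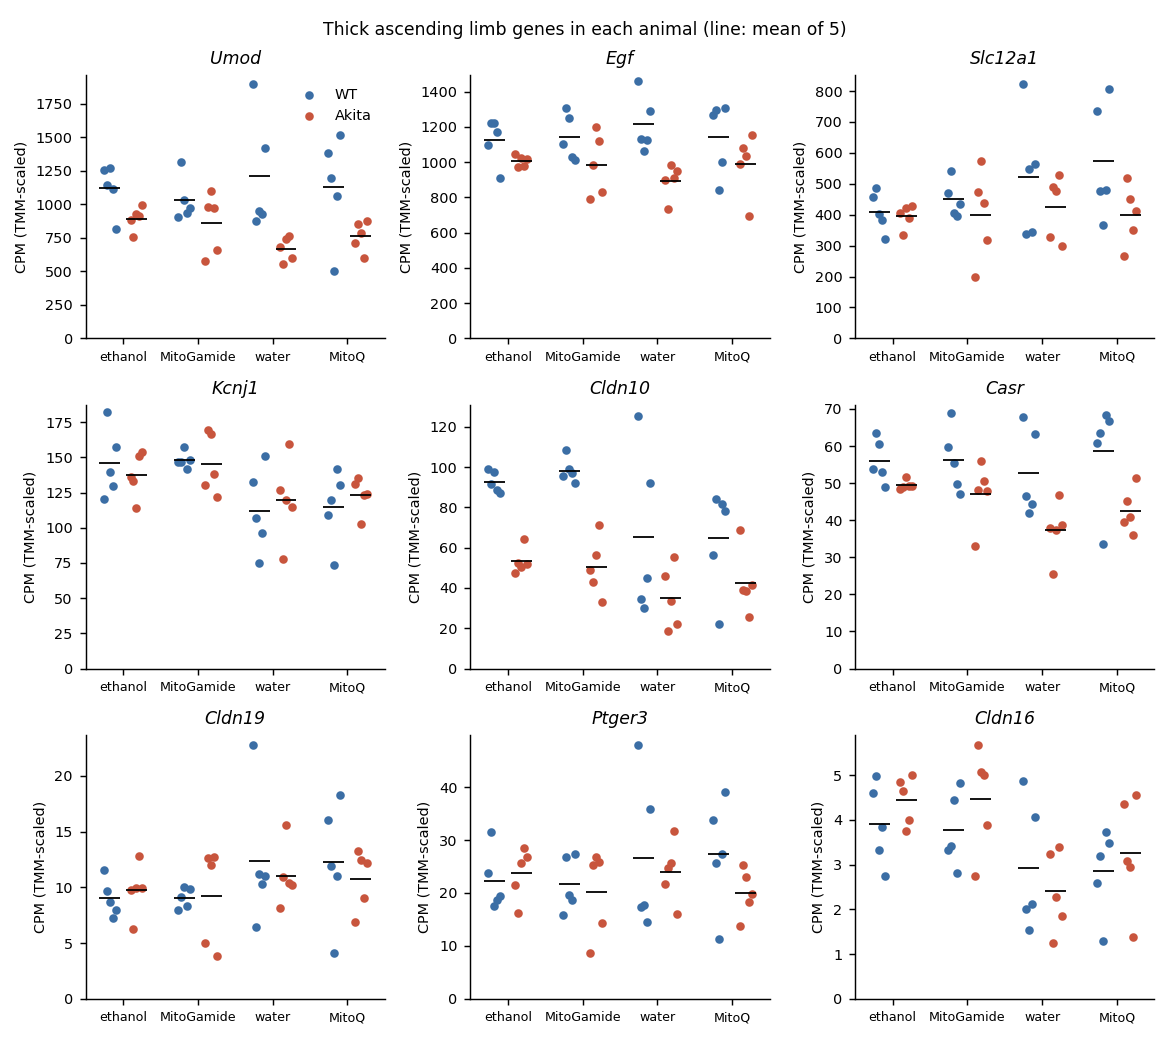
CPM of each of the 9 genes (TMM-scaled, linear axis from 0) in each of the 40 mice by treatment, with WT mice in blue, Akita mice in red and the mean of 5 mice as a line. Cldn10 shows 2 separate clusters of points on ethanol and on MitoGamide, and a wide spread among WT mice on water, from 30.2 to 126 CPM.

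Over all 4 treatments, 4 of the 9 genes were lower in Akita than in WT mice and none was higher. Cldn10 fell by 43.2%, Umod by 29.5%, Casr by 21.5% and Egf by 16.2%. For the cotransporter Slc12a1 and its potassium channel Kcnj1 the test was not passed, and the same held for Cldn16, Cldn19 and Ptger3. In edgeR's quasi-likelihood test with Benjamini-Hochberg adjustment over 17769 genes, the log2 fold changes were -0.82 (standard error 0.16, adjusted p = 0.000144) for Cldn10, -0.50 (standard error 0.11, adjusted p = 0.000551) for Umod, -0.35 (standard error 0.080, adjusted p = 0.00113) for Casr and -0.25 (standard error 0.071, adjusted p = 0.00694) for Egf. Those of the other 5 were -0.26 (standard error 0.12, adjusted p = 0.114) for Slc12a1, -0.16 (standard error 0.15, adjusted p = 0.502) for Ptger3, -0.059 (standard error 0.15, adjusted p = 0.835) for Cldn19, 0.020 (standard error 0.083, adjusted p = 0.904) for Kcnj1 and 0.087 (standard error 0.15, adjusted p = 0.735) for Cldn16. Of all genes tested, 22.8% were called, and 11.9% were called lower in Akita mice. The median log2 fold change was -0.25 over the 9 genes and -0.024 over all genes. In bulk tissue, fewer cells of a type and less RNA per cell cannot be told apart.

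The 4 calls held in every fit that left out 1 of the 40 libraries. Without replicate 1 of the WT mice on water, the library with the most liver markers, the log2 fold changes were -0.72 (adjusted p = 0.000292) for Cldn10, -0.45 (adjusted p = 0.00109) for Umod, -0.32 (adjusted p = 0.00229) for Casr and -0.24 (adjusted p = 0.0126) for Egf from the same edgeR test. In the 20 libraries of the ethanol arm only Cldn10 was called, at -0.85 (adjusted p = 1.82e-06 from the same edgeR test), and in the 20 of the water arm only Umod, at -0.72 (adjusted p = 0.0279). Cldn10 was at -0.75 (adjusted p = 0.206) in the water arm and Umod at -0.26 (adjusted p = 0.0811) in the ethanol arm. Of all genes, 32.3% were called in the ethanol arm and 4.15% in the water arm. Casr was at -0.18 in the ethanol and -0.48 in the water arm, with adjusted p of 0.086 and 0.0538. Egf was at -0.16 and -0.32, with 0.151 and 0.173. Without a filter on low counts, Egf was at -0.25 and no longer called (adjusted p = 0.091). Without both libraries of low TMM factor, Slc12a1 was called as well, at -0.32 (adjusted p = 0.0466).

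**Figure D2:**
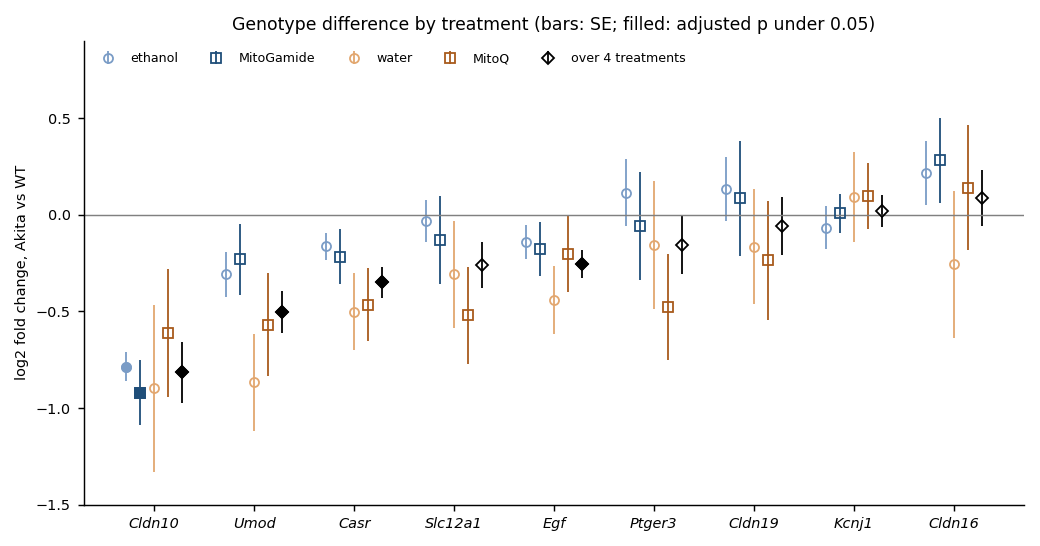
Log2 fold change of Akita against WT mice for each of the 9 genes, on each treatment (5 against 5 mice) and over 4 treatments, with the standard error as a bar and filled symbols where the adjusted p was under 0.05. The 5 points of Cldn10 lie between -0.92 and -0.61, and those of Kcnj1 between -0.066 and 0.10.

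Cldn10 (ENSMUSG00000022132.15, chromosome 14, 118787908 to 118875489, plus strand, GRCm38) changed most among the 9 genes. Its annotated transcripts start in separate regions, at 118787908 and 118787918 and, downstream, at 118854732. As background, the downstream start gives the thick ascending limb's isoform (Cldn10b) and the upstream ones an isoform of the proximal tubule (Cldn10a). The deposited row sums both, so that the share of each isoform was not measured. The promoters of Umod, Casr and Egf are shown because these genes also fell over 4 treatments. That of Cldn10b is not shown because most of its window lies in an annotated transcript. Capitals mark CG, the same on both strands, where DNA methylation can occur and which many broadly used promoters hold at high density. It was chosen after the sequences were seen.
Umod, chr7:119479283-119479512, minus strand: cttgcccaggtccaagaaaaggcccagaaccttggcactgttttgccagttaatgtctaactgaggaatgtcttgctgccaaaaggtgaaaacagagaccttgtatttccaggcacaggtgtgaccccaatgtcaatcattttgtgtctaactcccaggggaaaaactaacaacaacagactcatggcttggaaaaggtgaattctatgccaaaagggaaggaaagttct
Casr, chr16:36562142-36562384, minus strand: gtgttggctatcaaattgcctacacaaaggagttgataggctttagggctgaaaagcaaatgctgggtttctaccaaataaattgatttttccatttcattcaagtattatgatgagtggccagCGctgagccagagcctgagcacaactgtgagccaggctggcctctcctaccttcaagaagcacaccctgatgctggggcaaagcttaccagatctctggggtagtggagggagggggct
Egf, chr3:129755323-129755572, minus strand: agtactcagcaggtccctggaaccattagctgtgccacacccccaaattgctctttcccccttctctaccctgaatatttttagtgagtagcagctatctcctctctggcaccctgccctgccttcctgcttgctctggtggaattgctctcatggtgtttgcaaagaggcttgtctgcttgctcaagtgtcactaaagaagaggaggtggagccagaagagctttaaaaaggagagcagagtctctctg
The sequences are from RefSeq on GRCm38.p6, and those of Umod and Casr stop at the start of the GENCODE gene. Of the RefSeq windows of 250 bases before a start, those of Umod and Egf shown here held 0 CG (another of Egf, within the gene, held 15), that of Casr held 1 and the upstream one of Cldn10 held 4, whereas the downstream one of Cldn10 held 22. The median was 3.5 over the 12 windows of the 9 genes and 6 over 32851 windows of all genes, of which 92.1% held at least 1.

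On ethanol, Cldn10 was at 98.8, 91.5, 97.5, 88.8 and 87.1 CPM in the WT mice and at 47.3, 52.3, 50.4, 64.2 and 51.7 in the Akita mice. The lowest WT value was above the highest Akita value, an order that 7.51% of all genes showed in this comparison. The log2 fold change was -0.79 (standard error 0.075, adjusted p = 3.42e-05) in the edgeR test, and Cldn10 was the only one of the 9 genes called, while 16.4% of all genes were. On MitoGamide, Cldn10 was at 95.4, 108, 98.9, 96.9 and 91.9 CPM in WT and at 49.0, 42.8, 56.3, 71.5 and 33.2 in Akita mice. Again the groups did not overlap, as for 7.04% of all genes in this comparison, and Cldn10 was the only one of the 9 called, at -0.92 (standard error 0.17, adjusted p = 0.00531), against 14.3% of all genes. This share was 7.44% without replicate 2 of the WT mice on MitoGamide. Both calls held without any 1 of the 10 libraries. With all 40 libraries in one fit, Cldn10 was at -0.80 on ethanol and was not called (adjusted p = 0.161).

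On water, the 5 WT mice had 126, 34.7, 30.2, 45.2 and 92.0 CPM of Cldn10 and the 5 Akita mice 45.9, 18.7, 33.4, 55.4 and 22.1. On MitoQ, WT mice had 56.2, 84.2, 22.3, 81.9 and 78.4 CPM and Akita mice 68.6, 38.8, 38.4, 25.5 and 41.5. In both comparisons the groups overlapped, since 3 WT mice on water and 2 on MitoQ lay within or below the Akita values. The differences were -0.90 (standard error 0.43, adjusted p = 0.705) on water and -0.61 (standard error 0.33, adjusted p = 0.675) on MitoQ by edgeR. The value on water was -0.51 without replicate 1 of the WT mice on water. The spread differed more than the means: the SD of the WT mice was 5.20 CPM on ethanol and 41.6 on water. Cldn10 was also the gene whose deviations followed the axis of replicate differences most closely (r = 0.875 over 40 libraries).

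Umod (ENSMUSG00000030963.6; chromosome 7, 119462711 to 119479282, minus strand; GRCm38) was at 1896, 871, 951, 929.8 and 1416 CPM in WT mice on water and at 680.1, 554, 741, 764 and 600.0 in Akita mice on water. All 5 Akita values were below all 5 WT values, which 1.66% of all genes showed on water, and Egf was the only other one of the 9 genes to do so. The log2 fold change of Umod was -0.87 (standard error 0.25, adjusted p = 0.238), and -0.63 without replicate 1 of the WT mice on water. None of the 9 genes was called on water by the edgeR test, 3 had an unadjusted p under 0.05, and DESeq2 called 1. Of all genes, 0.552% were called by edgeR, 7.56% had an unadjusted p under 0.05 and 1.93% were called by DESeq2.

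On ethanol, Umod was at 1258, 1142, 1272, 1115 and 812 CPM in WT and 882, 755, 923, 914 and 991 in Akita mice. On MitoGamide the values were 902, 1313, 1029, 936 and 974 in WT and 579, 979.5, 1100.3, 969 and 658 in Akita mice. On MitoQ they were 1379, 1195, 499.8, 1059.6 and 1514 in WT and 707, 849, 782, 600.5 and 877 in Akita mice. The groups overlapped on each of these treatments, on ethanol through 1 WT mouse at 812 and on MitoQ through replicate 3 of the WT mice at 499.8. By edgeR, the log2 fold changes of Umod were -0.31 (standard error 0.12, adjusted p = 0.094) on ethanol, -0.23 (standard error 0.18, adjusted p = 0.42) on MitoGamide and -0.57 (standard error 0.27, adjusted p = 0.567) on MitoQ. The value on MitoGamide was -0.12 without replicate 1 of the Akita mice on MitoGamide. On MitoQ, 0 of the 9 genes and 0.557% of all genes were called, and 1 of the 9 and 9.06% of all genes had an unadjusted p under 0.05. Without replicate 3 of the WT mice on MitoQ, the library with the lowest TMM factor, Umod and Casr were called, with adjusted p of 0.0457 and 0.0242 in the edgeR test, which then called 1.47% of all genes.

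Casr (ENSMUSG00000051980.13; chromosome 16, 36493696 to 36562141, minus strand; GRCm38), the receptor through which calcium in the blood lowers salt and calcium uptake, is also the target of calcimimetic drugs. On water it was at 67.8, 46.5, 41.9, 44.4 and 63.1 CPM in WT and 38.0, 25.4, 37.5, 46.8 and 38.8 in Akita mice, and on MitoQ at 60.8, 63.6, 33.5, 68.4 and 66.6 in WT and 39.6, 45.3, 40.9, 36.1 and 51.3 in Akita mice. On ethanol the WT values were 53.9, 63.5, 60.6, 53.1 and 49.0 and the Akita values 48.4, 49.0, 51.6, 49.2 and 49.2. On MitoGamide they were 59.7, 69.0, 55.4, 49.9 and 47.0 and 33.1, 48.1, 56.1, 50.5 and 47.8. The mean was lower in Akita mice on each of the 4 treatments, and the groups overlapped on each. The differences were -0.16 on ethanol, -0.22 on MitoGamide, -0.50 on water and -0.46 on MitoQ on the log2 scale, with adjusted p between 0.139 and 0.515 from edgeR. The value on MitoGamide was -0.12 without replicate 1 of the Akita mice on MitoGamide.

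Egf (ENSMUSG00000028017.7; chromosome 3, 129677565 to 129755316, minus strand; GRCm38) varied least between animals of a group, with an SD of 0.190 on the log2 scale over all groups. On water it was at 1459, 1129, 1065, 1127 and 1289 CPM in WT mice and at 899.6, 733, 984, 909 and 952 in Akita mice, without overlap. On ethanol it was at 1098, 1221, 1222, 1169 and 911 in WT and 1045, 975, 1024, 980.2 and 1015 in Akita mice, where 1 WT mouse lay below all Akita mice. On MitoGamide the values were 1105, 1308, 1252, 1031 and 1014 in WT and 788, 982, 1201, 1117 and 829 in Akita mice, and on MitoQ 1269, 1294, 844, 1002 and 1309 and 991, 1082, 1036, 694 and 1152, with overlap in both. The log2 fold changes were -0.14 on ethanol, -0.18 on MitoGamide, -0.44 on water and -0.20 on MitoQ, and none was called alone. The value on MitoQ was -0.097 without replicate 4 of the Akita mice on MitoQ. That on MitoGamide was -0.11 without replicate 1 of the Akita mice on MitoGamide.

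Slc12a1 (ENSMUSG00000027202.12; chromosome 2, 125152505 to 125230002, plus strand; GRCm38) had a mean of 489 ± 147 CPM over 20 WT mice and 405 ± 94.9 over 20 Akita mice (SD). It ranged from 199 to 822 CPM over all 40. Its log2 fold changes between genotypes were -0.033 on ethanol, -0.13 on MitoGamide, -0.31 on water and -0.52 on MitoQ, and none was called. With 1 library left out, Slc12a1 lay between -0.11 and 0.041 on ethanol and between -0.30 and 0.033 on MitoGamide. On water it was at -0.071 without replicate 1 of the WT mice on water. Kcnj1 (ENSMUSG00000041248.9; chromosome 9, 32372493 to 32399197, plus strand; GRCm38) was at 130.3 ± 27.6 CPM in WT and 131 ± 21.9 in Akita mice. With a standard error of 0.083 on the log2 scale over 4 treatments, Kcnj1 was among the most precisely measured of the 9 genes. Its log2 fold changes were -0.066 on ethanol, 0.007 on MitoGamide, 0.091 on water and 0.10 on MitoQ, and none was called. For Kcnj1, each of these signs turned in a fit with 1 library left out. Ptger3 (ENSMUSG00000040016.16; chromosome 3, 157566892 to 157645888, plus strand; GRCm38) was at 24.5 ± 9.35 CPM in WT and 22.0 ± 5.83 in Akita mice, and Cldn19 (ENSMUSG00000066058.11; chromosome 4, 119255414 to 119262438, plus strand; GRCm38) at 10.7 ± 4.21 and 10.2 ± 2.99. The log2 fold changes between genotypes were 0.11 on ethanol, -0.059 on MitoGamide, -0.16 on water and -0.48 on MitoQ for Ptger3, and 0.13 on ethanol, 0.086 on MitoGamide, -0.17 on water and -0.24 on MitoQ for Cldn19. The sign thus differed between treatments for both, and none of these was called. With 1 library left out, both kept their signs on ethanol and on MitoQ, but not on MitoGamide or on water. On water, Ptger3 then lay between -0.31 and 0.17 and Cldn19 between -0.33 and 0.19.

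Cldn16 (ENSMUSG00000038148.13; chromosome 16, 26463135 to 26482765, plus strand; GRCm38) had the fewest counts of the 9 genes, between 6 and 104 per library. On ethanol it was at 4.61, 4.98, 3.32, 3.84 and 2.75 CPM in WT and 4.85, 4.64, 3.74, 4.01 and 5.01 in Akita mice, and on MitoGamide at 3.33, 3.42, 4.45, 2.81 and 4.83 in WT and 2.74, 5.68, 5.08, 5.01 and 3.89 in Akita mice. On water the values were 4.88, 2.01, 1.54, 2.12 and 4.06 in WT and 3.24, 1.25, 2.27, 3.40 and 1.85 in Akita mice, and on MitoQ 2.58, 3.19, 1.30, 3.73 and 3.48 and 4.37, 3.09, 2.95, 1.38 and 4.57. The genotypes overlapped on all 4 treatments. The log2 fold changes of Cldn16 were 0.22 on ethanol, 0.28 on MitoGamide, -0.26 on water and 0.14 on MitoQ, and none was called. With 1 library left out, they lay between -0.42 and 0.025 on water and between -0.0099 and 0.34 on MitoQ. The sign held on ethanol (0.11 to 0.33) and on MitoGamide (0.18 to 0.41).

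Cldn16 was compared with Cldn10 within each animal, as the ratio of their counts, which needs no scaling between libraries. The counts of Cldn10 include its proximal tubule isoform (Cldn10a). Over 4 treatments, 4 of 8 proximal tubule markers fell (median log2 fold change -0.25), where 11.9% of all genes were called lower. The part of the proximal tubule in the ratio was not tested. For each count of Cldn16 there were between 17.2 and 34.5 counts of Cldn10 in the 20 WT mice and between 7.53 and 18.5 in the 20 Akita mice. The mean log2 ratio was -3.58 ± 0.29 in Akita and -4.60 ± 0.32 in WT mice on ethanol (SD, n = 5 in each group, also below). It was -3.49 ± 0.52 in Akita and -4.73 ± 0.36 in WT mice on MitoGamide, -3.84 ± 0.17 in Akita and -4.40 ± 0.22 in WT mice on water, and -3.74 ± 0.38 in Akita and -4.44 ± 0.22 in WT mice on MitoQ. The ratio was thus higher in Akita mice on each treatment, by 1.02, 1.24, 0.56 and 0.70 on the log2 scale. This pair, like the other tests, was chosen with earlier results of these data known. Over 4 treatments, Cldn10 had the lowest and Cldn16 the highest log2 fold change of the 9 genes (-0.82 and 0.087). The ratio and the p below are therefore not independent of the fall of Cldn10. How many other pairs of genes differ as much was not tested. In two-sided exact permutation tests of 5 against 5 mice p was 0.00794 on ethanol and on water, and 0.0159 on MitoQ. On MitoGamide p was also 0.00794 in the exact test, and 0.00794 is the smallest value that this design allows. After Benjamini-Hochberg adjustment over 12 such tests the p were 0.0317 on ethanol, MitoGamide and water and 0.0381 on MitoQ (exact permutation tests). On ethanol, MitoGamide and water the Akita values did not overlap those of WT mice, although on water the levels of Cldn10 and of Cldn16 each overlapped between the genotypes. On water the difference was 0.49 without replicate 1 of the WT mice (exact permutation test, adjusted p = 0.0381). On MitoQ the adjusted p of the exact permutation test rose above 0.05 in 8 of the 10 cases with 1 library left out.

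Umod was set against Slc12a1 in the same way. Its mean log2 ratio to Slc12a1 was 1.18 ± 0.049 in Akita and 1.45 ± 0.17 in WT mice on ethanol, a difference of -0.27 (exact permutation test, p = 0.0159, adjusted p = 0.0381). On water it was 0.68 ± 0.36 in Akita and 1.23 ± 0.25 in WT mice, a difference of -0.54 (exact permutation test, p = 0.0317, adjusted p = 0.0635). On MitoGamide and MitoQ the differences were -0.048 and 0.0097 (exact permutation tests, adjusted p = 0.838 and 0.984). On ethanol it passed the adjusted test in 2 of the 10 cases with 1 library left out. Whether the difference of this ratio depended on the drug was not tested. The ratio of Egf to Slc12a1 differed between genotypes by -0.18 to 0.29, with adjusted p of 0.393 or more in the exact permutation tests.

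**Figure D3:**
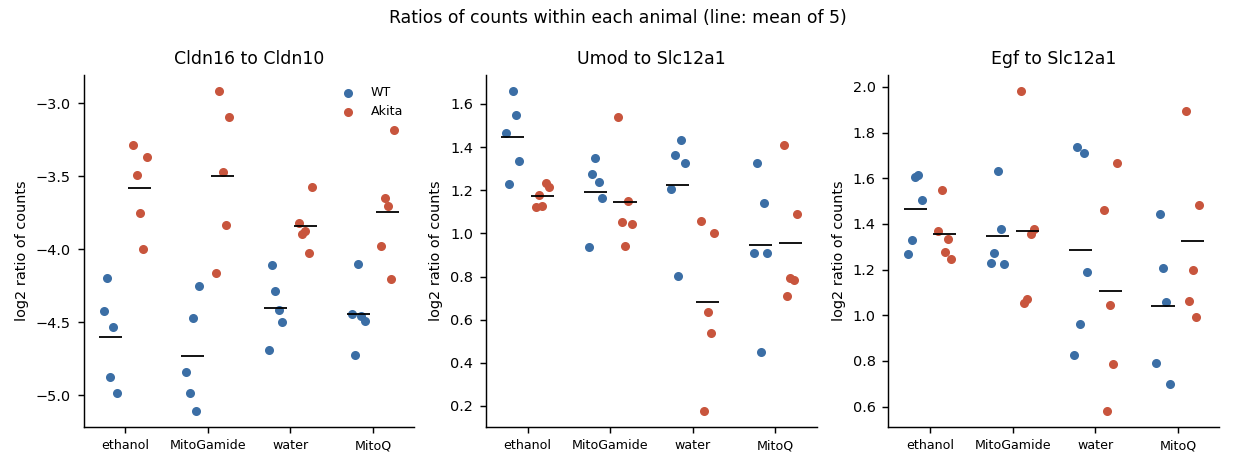
Log2 ratio of the counts of Cldn16 to Cldn10, Umod to Slc12a1 and Egf to Slc12a1 within each of the 40 mice, by treatment, with WT mice in blue, Akita mice in red and the mean of 5 as a line. The Akita points of Cldn16 to Cldn10 lie above the WT points on ethanol, MitoGamide and water. On ethanol and water they start from -4.00 and -4.03, against highest WT values of -4.20 and -4.11.

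The drugs were compared with their own vehicles. With MitoGamide in Akita mice, 0 of the 9 genes were called against 1.26% of all genes, and 0 of the 9 against 20.9% of all genes had an unadjusted p under 0.05 in the edgeR test. DESeq2 called 0 of the 9. The 214 genes behind this share became 0 to 802 with 1 library left out, with 802 without replicate 5 of the Akita mice on MitoGamide, and DESeq2 called 1069. The log2 fold changes of the 9 genes ran from -0.21 for Ptger3 to 0.087 for Kcnj1. Of the 9 genes, Cldn10 had the largest genotype difference. In these Akita mice it was at 50.6 ± 14.5 CPM with MitoGamide and 53.2 ± 6.46 with ethanol (SD, n = 5). These levels differ by -0.059 (standard error 0.18, adjusted p = 0.881, edgeR) on the log2 scale. In WT mice, MitoGamide gave changes from -0.12 (Umod) to 0.13 (Slc12a1). With MitoQ in Akita mice the changes ran from -0.27 for Ptger3 to 0.40 for Cldn16, and in WT mice from -0.10 (Umod) to 0.16 (Casr). In these 3 comparisons, 0 of the 9 genes and 0% of all genes were called by edgeR, and 0 of the 9 had an unadjusted p under 0.05 or a call by DESeq2. Over all genes, 1841, 363 and 575 had an unadjusted p under 0.05 in edgeR, for MitoGamide in WT, MitoQ in Akita and MitoQ in WT mice, and DESeq2 called 74, 0 and 2. Standard errors of single genes reached 0.44 for Cldn10 with MitoQ in WT mice and were as low as 0.061 for Cldn10 with MitoGamide in WT mice.

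The genotype difference itself was not shown to depend on treatment. A test over all 4 treatments (edgeR, 3 degrees of freedom) called 0 of the 9 genes and 0% of all genes, with an unadjusted p of 0.218 for Umod, the smallest of the 9. The interactions of genotype with MitoGamide, with MitoQ and with vehicle called 0 of the 9 and 0% of all genes each, and 0 of the 9 by DESeq2. Unadjusted p under 0.05 in edgeR were reached by 0 of the 9 genes in any of these 4 tests, by 883 of all genes in the first, and by 1435, 207 and 767 in the interactions, and DESeq2 called 15 genes in the first and 0, 0 and 2 in the interactions. Umod had the largest of the 27 interaction terms, 0.56 for vehicle (standard error 0.29, unadjusted p = 0.0659, edgeR). This term was 0.33 without replicate 1 of the WT mice on water. The MitoQ term of Cldn16 reached 0.60 without replicate 4 of the Akita mice on MitoQ.

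Between the vehicles, Akita mice on ethanol had more Cldn16 than Akita mice on water, by 0.85 (standard error 0.23, adjusted p = 0.0403) in the edgeR test, the only call among the 9 genes, against 12.7% of all genes. These 2283 genes became 1 without replicate 2 of the Akita mice on ethanol and 6496 without replicate 1 of those on water. The 5 values on ethanol were above the 5 on water for Cldn16 and Casr, as for 4.12% of all genes. Casr, Umod and Cldn10 were at 0.42, 0.43 and 0.60, with adjusted p of 0.0602, 0.0622 and 0.103. The call of Cldn16 held in 2 of 10 fits that left out 1 library, with differences between 0.71 and 1.00. With the replicate number as a block, 0 of the 9 genes and 0% of all genes were called. Without the libraries of low TMM factor, 0 of the 9 genes and 0.732% of all genes were called. Without replicate 4 of the Akita mice on water, 4 of the 9 and 34.5% of all genes were called. In WT mice 0 of the 9 genes and 0% of all genes were called by edgeR, with 0 of the 9 at an unadjusted p under 0.05 and 0 called by DESeq2, while 4959 of all genes had an unadjusted p under 0.05 and DESeq2 called 725. Up to 5216 genes were called by edgeR with 1 library left out, without replicate 5 of the WT mice on water. Cldn16 differed by 0.41 there. Vehicle and arm cannot be told apart. The genotype comparisons on ethanol and on water share their libraries with these.

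Lists of other genes with which the thick ascending limb carries out its transport were read in the same comparison over 4 treatments. Adjusted p below are from the same edgeR test, and values are log2 fold changes. Of 11 partners in salt transport, 4 rose in Akita mice, 0 fell and 7 did not pass the test. Of all genes, 10.9% were called higher in Akita mice and 11.9% lower. Atp1b1, the beta subunit of the sodium pump, was at 0.32 (adjusted p = 0.000483), with 1199 ± 163 CPM in WT and 1498 ± 243 in Akita mice (SD, n = 20). Other segments of the tubule express genes of this list too. The median log2 fold change of the list was 0.16, against -0.25 for the 9 genes.

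Among 10 kinases and other regulators of the cotransporter, 4 rose, 0 fell and 6 did not pass the test, where 10.9% of all genes were called higher. Stk39, the kinase SPAK that phosphorylates it, was at 0.35 (adjusted p = 2.39e-07). The WNK kinases upstream of SPAK, Wnk1 and Wnk4, were at 0.31 (adjusted p = 0.00266) and 0.28 (adjusted p = 0.0143), and Klhl3, an adaptor of the ligase that degrades WNK kinases, was at 0.24 (adjusted p = 0.0102). These genes are also expressed in the distal convoluted tubule.

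Of 10 genes for calcium and magnesium handling and hormone receptors, 7 had enough counts to be tested. In this list and the next pair, 1 of 7, 3 of 8 and 3 of 6 genes were called in either direction, against 22.8% of all genes. Rragd, a Rag GTPase linked to magnesium loss in patients, rose, at 0.48 (adjusted p = 0.00103), and the other 6 did not pass the test. Cldn14, which blocks the pore of Cldn16 and Cldn19, had at most 5 counts in a library and was not tested. Among 8 transcription factors of the limb, 2 rose, Foxq1 at 0.57 (adjusted p = 0.00516) and Esrrb at 0.47 (adjusted p = 0.000152), and Irx3 fell, at -0.32 (adjusted p = 0.00164). Among 6 other genes enriched in the limb, the transcription factor Tfcp2l1 and the membrane protein Mal rose, at 0.31 (adjusted p = 0.00234) and 0.33 (adjusted p = 0.013). Hpn, the protease hepsin that releases uromodulin from the cell surface, fell, at -0.23 (adjusted p = 0.00634). The RNA is from bulk cortex, so the segment in which a gene of these lists changed was not measured. In the water arm alone, 26 of the 33 named list genes over all lists were not called, and in the ethanol arm alone 4 were not.

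**Figure D4:**
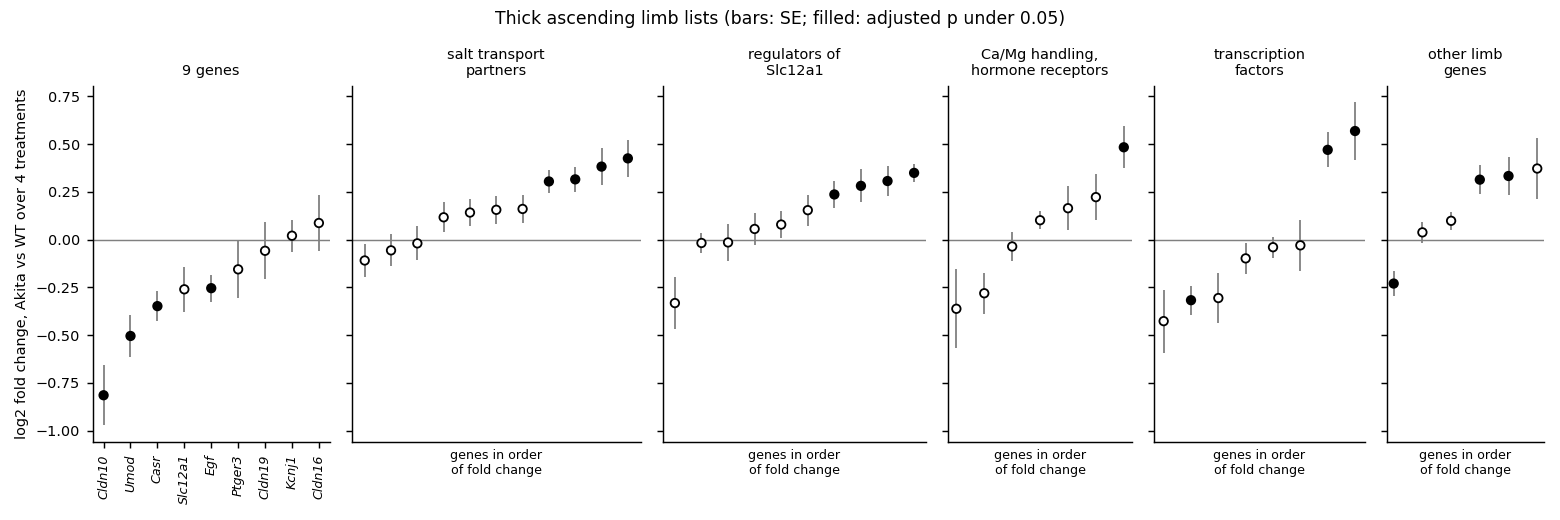
Log2 fold change of Akita against WT mice over 4 treatments for the 9 genes and for the tested genes of 5 further lists of the thick ascending limb, in order of fold change within a list and named for the 9 genes, with standard errors as bars and filled points where the adjusted p was under 0.05. All 4 filled points of the 9 genes lie below 0, and all 8 of the salt transport partners and regulators of Slc12a1 lie above it.

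Markers of other cells were read in the same comparison, in which 11.9% of all genes were called lower and 10.9% higher in Akita mice. Of 8 proximal tubule markers, 4 fell and 0 rose, with Slc22a7 (-2.34), Slc7a13 (-1.61), Lrp2 (-0.38) and Slc34a1 (-0.29) as log2 fold changes, and a median of -0.25. Their summed level was 7789 to 15448 CPM (median 13168) in WT and 7623 to 12599 (median 10015) in Akita mice. Of 5 distal convoluted tubule markers 3 rose, with Calb1 (1.00), Trpm6 (0.59) and Klhl3 (0.24), and of 5 principal cell markers 4 rose, with Aqp2 (0.98), Scnn1g (0.53), Scnn1b (0.34) and Aqp3 (0.33). The summed levels were 718 to 2035 CPM (median 1079.7) in WT and 1204 to 2532 (median 1460.3) in Akita mice for the distal convoluted tubule. For principal cells they were 107 to 200.1 CPM (median 146) in WT and 157 to 289 (median 221) in Akita mice. Of 4 podocyte markers 2 rose, with Nphs1 (0.47) as an example. Among 4 endothelial markers Cdh5 and Pecam1 rose (0.28 and 0.27) and Emcn fell (-0.22). Among 6 markers of the thin limb and inner medulla 1 rose and Akr1b3, which is also the aldose reductase of other segments, fell (-0.44). For intercalated cells 0 of 5 and for liver 0 of 4 markers were called by edgeR, with 2 of each at an unadjusted p under 0.05 and 1 of each called by DESeq2. Of all genes, 33.6% had an unadjusted p under 0.05 and DESeq2 called 24.3%. The call of Emcn held in 13 of 40 fits with 1 library left out. The summed levels of the 9 genes themselves were 1856 to 4579 CPM (median 2999) in WT and 1796 to 3197 (median 2498) in Akita mice. The part of the cell makeup of the samples in the differences of the 9 genes was not tested.

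**Figure D5:**
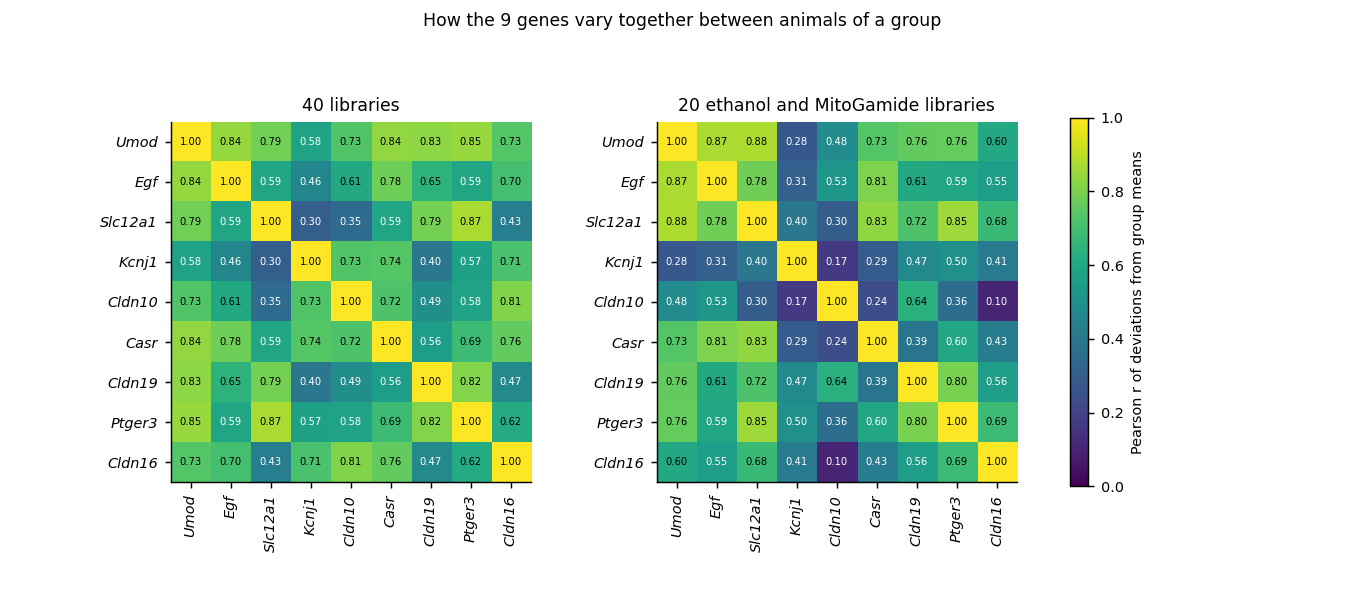
Pearson r between the 9 genes of their deviations of log2 CPM from the group means, over 40 libraries on the left and over the 20 libraries on ethanol and MitoGamide on the right, coloured from 0 to 1. Cldn10 and Cldn16 stand at 0.81 on the left and 0.10 on the right, and Umod and Egf at 0.84 and 0.87.

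Between animals of the same group the 9 genes varied together. Over 40 libraries, Pearson's r of the deviations of log2 CPM from the group means was positive for all 36 pairs, from 0.30 for Kcnj1 and Slc12a1 to 0.87 for Ptger3 and Slc12a1. With the mean of the other 8 genes, r ran from 0.662 for Kcnj1 to 0.946 for Umod. These points share depth, scaling and the axis of replicate differences, with which Cldn10, Cldn16 and Kcnj1 had r of 0.875, 0.853 and 0.780, and Slc12a1 and Cldn19 0.236 and 0.270. In the 20 libraries on ethanol and MitoGamide, where the axis was narrower but the mean of the 9 genes still had r of 0.553 with it (0.715 over 40), Umod had r of 0.88 with Slc12a1 and 0.87 with Egf. There Cldn10 had r from 0.10 with Cldn16 to 0.64 with Cldn19, and Kcnj1 from 0.17 with Cldn10 to 0.50 with Ptger3.

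Outside the 9 genes, the 10 whose deviations were most like the mean of the 9 over 40 libraries were Abhd2, Aktip, Gpm6a, Mme, Aqp1, Prepl, Tmigd1, Ugdh, Ghr and Slc16a9, with r from 0.847 to 0.902. Among them, Mme is neprilysin, Aqp1 a water channel and Ghr the growth hormone receptor, and none of the 10 was in a list of the limb. Enrichment of these 10 genes for a cell type was not tested. Their r with the axis of replicate differences lay between 0.664 and 0.862. Over the 20 libraries on ethanol and MitoGamide, chosen after the data were seen, the 10 nearest genes were Tmem207, Reln, Ppp1r1b, Methig1, Slc2a13, Mep1b, Pcsk6, Irx1, Mettl7a2 and Cryab, with r from 0.852 to 0.907, and 0 were shared with the first 10. Tmem207 and Irx1 were on the lists of the limb, and the others, among them Mep1b with r of 0.870, were on none of the lists. The lists are short, so a gene on none of them was not assigned to a cell type here. Enrichment was not tested here either. The r of the first 10 genes in these 20 libraries was 0.606 to 0.840.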

How the data were processed

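Gene expression was measured by RNA sequencing of ribosomal RNA-depleted total RNA from the kidney cortex of 40 mice in 8 groups of 5. The authors trimmed single reads with Skewer, estimated transcript abundance with kallisto 0.46.1 against the GENCODE mouse release 25 transcripts on GRCm38, and summed the estimates by gene in R 4.0.2. The deposited values are these expected counts, as whole numbers, with 55401 genes and 9106654 to 24321424 counts per library. Transcript isoforms cannot be told apart in them, and multi-mapping reads were shared out by kallisto. Values of genes that overlap or resemble others depend on that sharing.

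Here, counts were fitted with edgeR 4.0.16 (R 4.3.3; TMM factors, quasi-likelihood test) for genes whose counts averaged 10 or more in the libraries compared. Adjusted p are Benjamini-Hochberg values over all genes tested, a gene was called at an adjusted p under 0.05, and the standard error was taken from the fold change and the F value. There were 15 comparisons: 10 of 2 groups on their own 10 libraries, 1 of genotype over 4 treatments on 40, 1 test of its difference among treatments, and 3 interactions on 20. Comparisons share libraries, so they are not independent of one another. CPM and the fits of the axis used all 40 libraries, and log2 CPM had a prior count of 1. The ratios of counts were tested with exact permutation tests in scipy 1.17.1. The code was tested on simulated data with 200 changed genes. Depth was 15638395 counts at the median.

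Positions are from GENCODE release 21 on GRCm38, which held 99.5% of the gene IDs. Levels per kilobase used the length of the principal transcripts. The 9 genes, the 15 further gene lists and the tests were chosen with earlier results of these data known. All 9 genes were described in every comparison, together with up to 4 genes per list with the smallest p among those called over 4 treatments and the 10 genes with the most similar deviations. Alternatives were DESeq2 1.42.0, RLE size factors, other filters, the replicate number as a block, 1 fit of all 40 libraries, each library left out and, chosen after seeing the data, each arm alone, libraries with a TMM factor under 0.8 left out and the axis as a covariate. Protein sequences were not used here. Single values of some list genes are not reported here, although they are in the counts of their lists.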

Additional observations from a re-analysis of the deposited data

Results flagged for a closer look

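Among the values of the 9 genes and of the 3 ratios, 3 of 96 groups of 5 mice held a value that stood apart by Dixon's test of the gap over the range at the 95% level, and chance gives 4.80. Cldn19 was at 22.7 CPM in replicate 1 of the WT mice on water, against 6.46 to 11.2 in the other 4, a gap of 0.711 of the range. This library also had the most liver markers, 370.5 CPM in sum. Casr was at 33.5 CPM in replicate 3 of the WT mice on MitoQ, against 60.8 to 68.4 in the other 4, a gap of 0.782 of the range. This library also had the lowest TMM factor, 0.505. Casr was at 51.6 CPM in replicate 3 of the Akita mice on ethanol, against 48.4 to 49.2 in the other 4, a gap of 0.732 of a narrow range.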

How the results depend on the processing

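Of 2604 alternative values, 2461 kept their direction and their side of the threshold or stayed close in size, 101 lost and 2 gained a call, 14 changed sign and 26 counts moved. The cause was not tested for any. The share of all genes called under the same setting stands in brackets. Over 4 treatments, 4 of the 9 genes were called by DESeq2 (24.3%), with RLE factors (22.5%), with the stricter filter (27.2%), with the replicate block (22.9%) and with the axis as a covariate (36.3%), 3 without a filter (8.93%) and 5 without the libraries of low TMM factor (25.1%), and 1 was called in the ethanol arm alone (32.3%) and 1 in the water arm alone (4.15%). Signs changed for genes that were not called: Cldn16 was at -0.048 in the water arm alone, and Cldn19, Ptger3 and Kcnj1 were at 0.11, 0.034 and -0.024 in the ethanol arm alone. With 1 library left out, Cldn19 lay between -0.10 and 0.026 and Kcnj1 between -0.011 and 0.078. On ethanol, 0 of the 9 genes were called in the fit of all 40 libraries (4.75%) and 2 by DESeq2 (17.6%), and 1 to 2 with 1 library left out (2 without replicate 5 of the WT mice, where 14.2% of all genes were). On water, 4 were called with the axis as a covariate (5.28%), 1 in the fit of all 40 (3.08%) and 1 by DESeq2 (1.93%). On MitoQ, 2 were called without the libraries of low TMM factor (1.47%), 1 with the axis as a covariate (4.35%), and 0 to 2 with 1 library left out. Ethanol against water in Akita mice gave 0 calls without the libraries of low TMM factor (0.732%), 4 with the axis as a covariate (50.02%), 3 by DESeq2 (23.8%) and 0 to 4 with 1 library left out (4 without replicate 4 of the Akita mice on water, where 34.5% of all genes were). In WT mice it gave 3 with the axis as a covariate (37.8%).

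The labels give a replicate number without saying whether it marks a pair, and the main tests treated the mice as unpaired. Of same-numbered replicates, 12 of 50 pairs correlated above 0.1 (r from -0.43 to 0.63) and 12 of 50 correlated best with their own number. These correlations cannot show whether same-numbered mice shared a litter, cage or batch. With the replicate block, ethanol against water in Akita mice gave 0 calls among the 9 genes and 0 among all genes, and the genotype calls on water and MitoQ went to 32 and 48 genes. Differences paired by replicate number gave ratios of Cldn16 to Cldn10 that were higher in Akita mice by 1.02 on ethanol, 1.24 on MitoGamide, 0.56 on water and 0.70 on MitoQ, and of Umod to Slc12a1 by -0.27 on ethanol, all with an adjusted p of 0.125 in the exact sign-flip test, in which 5 pairs cannot give less than 0.0625 before adjustment. With 1 library left out, the differences of the ratios lay between 0.56 and 0.82 (Cldn16 to Cldn10 on MitoQ), -0.33 and -0.22 (Umod to Slc12a1 on ethanol), -0.65 and -0.42 (on water), -0.15 and 0.0028 (on MitoGamide), -0.11 and 0.10 (on MitoQ), and -0.13 and 0.10 (Egf to Slc12a1 on MitoGamide).

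Counts of called genes over the whole table moved as well. Genotype over 4 treatments gave 4052, 6459 with the axis as a covariate, 5567 in the ethanol arm and 756 in the water arm. Genotype on ethanol gave 2910 and 844 in the fit of all 40, on water 101 and 32 (with the replicate block) to 967 (with the axis as a covariate), and on MitoQ 101 and 35 (without replicate 5 of the Akita mice) to 790 (with the axis as a covariate). On MitoGamide it gave 2386, and 1248 to 2822 with 1 library left out, with 1248 without replicate 2 of the WT mice. Ethanol against water in Akita mice gave 2283, 1352 without a filter, 132 without the libraries of low TMM factor, 4264 by DESeq2 and 8968 with the axis as a covariate, and in WT mice 0 and up to 6847 with the axis as a covariate. MitoGamide in Akita mice gave 214, 0 with the replicate block, 32 in the fit of all 40, 333 with the axis as a covariate and 1069 by DESeq2. The genotype difference among treatments gave 0, and 324 with the axis as a covariate.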

Other observations

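Genes around epidermal growth factor and the macula densa, the cells at the end of the thick ascending limb that sense salt, were tested over 4 treatments with the same edgeR test. Of 10 genes for receptors of Egf, related ligands and the magnesium channel that Egf regulates, 8 had enough counts, 2 rose and 0 fell in Akita mice, a share near the 22.8% of all genes that were called. Btc, betacellulin, another ligand of the Egf receptor, was at 0.67 (adjusted p = 8.38e-08), and Trpm6, the magnesium channel of the distal convoluted tubule, at 0.59 (adjusted p = 0.000733), while Egf itself was lower. The receptor Egfr was at -0.14 (adjusted p = 0.0978) and did not pass the test. Of 3 macula densa genes 2 were tested and 1 was called. Ptges, a synthase of prostaglandin E2, rose, at 0.36 (adjusted p = 0.00146). The cells that this RNA came from were not measured in bulk cortex. Ptger3, a receptor of that prostaglandin, did not pass the test.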
